A study of Homo sapiens with 6 samples.

Results

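Metallothioneins were followed in ARPE-19 cells, an established human line of the retinal pigment epithelium (RPE), in which METTL3 had been silenced by a short hairpin RNA (sh-METTL3) or which carried a scramble hairpin (sh-Control). The genes were selected by name from the rows of the single gene table: protein-coding genes called MT1 with 1 further capital letter, and MT2A. This gave 6 genes of 7758 in the table, namely MT2A, MT1E, MT1M, MT1A, MT1F and MT1X. GENCODE release 29 annotates 9 genes that fit the name, all on chromosome 16, and MT1B, MT1G and MT1H were not analysed here. The table holds only genes that the authors had called different between these groups, 33.8% of those they tested, and MT1M was picked for its large difference. The difference of each of the 6 genes had thus been used to choose it. These differences are therefore given as a description, without a test.

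Both groups received the same stimulus, lipopolysaccharide (LPS, a bacterial product that sets off inflammation) at 1 μg/ml for 24 h, and each comprised 3 libraries. Cells without LPS were not part of the comparison. The hairpin was delivered by lentivirus and stably transduced cells were kept by drug selection, so the groups are selected lines, grown in medium with serum. Whether the replicates go back to separate cultures or infections is not given in the sources used here, so SDs and p-values measure only the spread between these libraries, which may be technical. Values are scaled read counts, that is, the reads on a gene divided by 1 size factor per library. The reads on all listed genes ranged from 10898434 to 17750052 per library. METTL3, the targeted methyltransferase, had scaled counts of 1154, 1108 and 1091 in the sh-Control libraries and of 966, 1001 and 765 in the sh-METTL3 libraries, so the groups did not overlap (log2 difference -0.30, SE 0.097, adjusted p = 0.032 by limma). Of 15 RPE markers 8 were listed, beside 33.8% of the genes that the authors tested. Of the 8, 3 were lower (BEST1, PMEL and SERPINF1) and 5 higher in sh-METTL3 (among them MITF, LRAT, KRT8 and KRT18). Over all listed genes 51.3% were lower and 46.6% higher by limma. RPE65, RLBP1, TYR, TYRP1, DCT, OTX2 and TTR were not analysed here. Of 6 leukocyte markers only CD14 was listed, at a mean scaled count of 25.3 in sh-Control and 1.31 in sh-METTL3. As these are bulk samples, fewer cells that express a gene and less RNA per cell cannot be told apart.

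Metallothioneins are very small cytosolic proteins rich in cysteine, whose thiol groups bind zinc and copper and, after exposure, cadmium. Their genes are switched on by zinc through the metal-responsive transcription factor MTF1, which binds short metal response elements in their promoters, and also by glucocorticoids, cytokines and oxidative stress. In the RPE they are known as part of the zinc store and of the defence against oxidants. MT2A and the MT1 genes lie side by side as copies of one another, while MT3 and MT4 have a more restricted expression.

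The 6 genes lie on the plus strand of GRCh38 chromosome 16 within 76.0 kb. In order they are MT2A (ENSG00000125148, 56608199 to 56609497), MT1E (ENSG00000169715, 56625475 to 56627112) and MT1M (ENSG00000205364, 56632233 to 56633986), followed by MT1A (ENSG00000205362, 56638666 to 56640087), MT1F (ENSG00000198417, 56657694 to 56660698) and MT1X (ENSG00000187193, 56682424 to 56684196). In each of them the reading frame was split over 3 exons and spanned 186 bases. All 6 frames held 61 codons before the stop, of which 20 (32.8%) encoded cysteine.

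The coding sequences of 3 genes are shown because MT2A and MT1E carried most of the reads and MT1M was almost absent from the sh-METTL3 libraries. They were read from the GENCODE transcripts ending in 201, 5′ to 3′, and the capitals mark the in-frame cysteine codons. On chromosome 16 they run from 56608656 to 56609354 in MT2A, from 56625852 to 56626971 in MT1E and from 56632732 to 56633842 in MT1M, introns included.
MT2A: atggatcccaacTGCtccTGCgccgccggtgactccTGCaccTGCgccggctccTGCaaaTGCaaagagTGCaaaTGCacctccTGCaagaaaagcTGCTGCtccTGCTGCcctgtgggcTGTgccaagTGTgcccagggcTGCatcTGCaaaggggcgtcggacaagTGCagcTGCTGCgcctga
MT1E: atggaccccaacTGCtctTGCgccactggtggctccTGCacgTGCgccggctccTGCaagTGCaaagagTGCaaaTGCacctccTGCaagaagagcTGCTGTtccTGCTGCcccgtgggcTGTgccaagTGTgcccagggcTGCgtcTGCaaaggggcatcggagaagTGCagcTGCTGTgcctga
MT1M: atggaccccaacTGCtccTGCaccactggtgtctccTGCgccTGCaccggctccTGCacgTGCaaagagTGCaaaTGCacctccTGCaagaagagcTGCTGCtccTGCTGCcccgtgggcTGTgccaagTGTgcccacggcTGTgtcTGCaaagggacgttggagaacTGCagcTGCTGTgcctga

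The number and order of the cysteine codons can be followed from line to line, and most substitutions fall between them. Pairwise identity over the 186 coding bases ranged from 88.7% (MT1F and MT1X, 21 differences) to 94.6% (MT1E and MT1A, 10 differences). MT1M differed from MT1E at 14 positions, from MT1A at 16 and from MT2A at 19. Such similarity bears on how reads were assigned, so the annotated transcripts were searched for stretches that another gene repeats exactly, on either strand. Of all windows of 50 bases, 9.87% in MT1M, 7.10% in MT1E, 5.76% in MT1A, 3.02% in MT2A and 1.22% in MT1F occurred in another gene. With windows of 100 bases this share was 0% in these 5 genes. MT1X shared 18.3% of its windows of 50 bases and 11.3% of those of 100, the latter all with 1 other annotated gene, AC026461.1. Read length and the treatment of reads with several matches were not given in the sources used here, so the assignment of reads is uncertain to that extent. For MT1X this concerns AC026461.1 as well as other metallothionein genes. Among the other 5 genes the share of 50-base windows was largest in MT1M, and MT1E was among the genes that held them.

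Promoters were compared because metal response elements are the sites through which zinc acts on these genes. Of the 6 genes, MT2A and MT1X matched the RefSeq promoter table (GRCh38.p14). The 250 bases before each RefSeq start are shown, with capitals on matches to the core TGCACNC or TGCGCNC on either strand and no match overlapping another. The MT2A stretch is chr16:56608334-56608583 and that of MT1X is chr16:56682220-56682469, both on the plus strand. GENCODE starts these genes further upstream, at 56608199 and 56682424. The MT2A stretch thus lies within the gene as GENCODE has it, and that of MT1X partly does.
MT2A: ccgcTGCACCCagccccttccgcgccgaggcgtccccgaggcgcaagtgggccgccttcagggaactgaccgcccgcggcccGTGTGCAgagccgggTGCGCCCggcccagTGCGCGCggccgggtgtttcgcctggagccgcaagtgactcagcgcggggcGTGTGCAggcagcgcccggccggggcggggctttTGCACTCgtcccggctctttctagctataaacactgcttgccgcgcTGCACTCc
MT1X: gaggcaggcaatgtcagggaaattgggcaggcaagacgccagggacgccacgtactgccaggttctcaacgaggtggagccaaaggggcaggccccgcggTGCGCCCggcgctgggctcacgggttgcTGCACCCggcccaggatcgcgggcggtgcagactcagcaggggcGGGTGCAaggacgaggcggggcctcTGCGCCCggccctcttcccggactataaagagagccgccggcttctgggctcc

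MT2A showed 7 matches in this stretch and 8 in the full window of 300 bases, which also takes in the 50 bases after the start. MT1X showed 4, all before the start. Over all 35116 promoters of the same length 29.6% held at least 1 match, 0.0199% held as many as MT2A and 0.601% held as many as MT1X. These are matches of letters only.

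All 6 metallothioneins were lower in the sh-METTL3 than in the sh-Control libraries, and the size of the difference set them apart from each other. MT1M and MT1A were almost absent from the sh-METTL3 libraries. MT1E and MT1X stood at less than 50% of the control, and MT2A and MT1F at about 70%. The groups did not overlap for any of the 6, which was so for 51.7% of all listed genes in this direction. Because the table was selected on this contrast, nothing is read from this count. A log2 difference below -1 was seen in 4 of the 6 genes and in 13.2% of listed genes. With the size factors of DESeq2 MT1E was at -0.93 and thus short of this limit. The median log2 difference was -1.13 over the 6 genes and -0.21 over all listed genes.

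**Figure D1:**
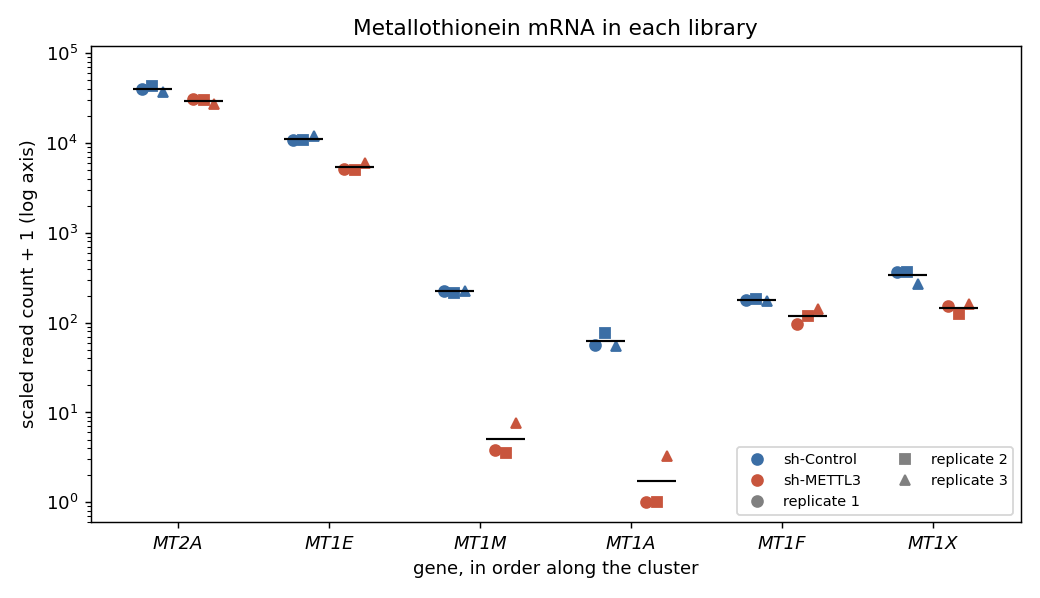
Scaled read count plus 1, on a log axis, of the 6 metallothionein genes in each of the 3 sh-Control and 3 sh-METTL3 libraries, with a bar at each group mean. The levels run from 42460 for MT2A in sh-Control replicate 2 to 0 reads for MT1A in sh-METTL3 replicates 1 and 2, and no gene has overlapping groups.

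MT1M, a metallothionein of the MT1 group, had scaled counts of 225, 213 and 226 in sh-Control replicates 1, 2 and 3 and of 2.8, 2.58 and 6.72 in the sh-METTL3 replicates. The control libraries lay within a coefficient of variation of 3.21%, below the counting error of a single library, which was 5.95% to 6.71%. The sh-METTL3 values stand for 3, 2 and 6 reads, so that the highest, in replicate 3, differs from the others by a few reads. The group means were 221 ± 7.12 and 4.03 ± 2.33 (SD, n = 3 each). The reads of the groups, 746 and 11, put the sh-METTL3 level at 1.81% of the control, or 55.3-fold lower (95% exact interval 30.7 to 111). This and the following intervals cover counting error only. Its log2 difference of -5.56 (SE 0.31), on log2 of the scaled count plus 1, was the 8th lowest of the 7758 listed genes.

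MT1A, which follows MT1M along the chromosome and had the fewest reads of the 6, stood at 55.0, 75.9 and 53.3 in the sh-Control libraries. In sh-METTL3 replicates 1 and 2 it had 0 reads, and in replicate 3 it had 2 reads, a scaled count of 2.24. The control libraries themselves varied more than those of MT1M, with replicate 2 highest and a mean of 61.4 ± 12.6 (SD, n = 3). With 205 reads against 2 the level was 83.5-fold lower, with a 95% exact interval from 22.8 to 694 that shows how little 2 reads can say about the size of the ratio. The log2 difference was -5.38 (SE 0.49) with a pseudocount of 1 and moved to -7.73 with a pseudocount of 0.1. At this depth it cannot be told which of MT1M and MT1A was reduced further, as their intervals overlap.

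MT1E was the second most abundant of the 6. Its scaled counts were 10689, 10821 and 11900 in the sh-Control libraries and 5143, 5027 and 5911 in the sh-METTL3 libraries. Replicate 3 was the highest in both groups, and the gap between the groups was much wider than either spread. The means were 11136 ± 665 and 5361 ± 480 (SD, n = 3 each), and the reads put sh-METTL3 at 48.2% of the control (95% exact interval 47.3 to 49.2). The log2 difference was -1.06 (SE 0.072).

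MT1X, at the far end of the cluster, had 366, 367 and 268 in the sh-Control libraries and 150, 124 and 159 in the sh-METTL3 libraries. Control replicate 3 lay well below its group but above all sh-METTL3 libraries. The means were 334 ± 56.8 and 144 ± 18.4 (SD, n = 3 each), 43.4% of the control (95% exact interval 38.6 to 48.7), with a log2 difference of -1.20 (SE 0.16). Part of its reads may belong to AC026461.1.

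MT1F had 177, 183 and 172 in the sh-Control libraries and 96.1, 119 and 141 in the sh-METTL3 libraries. The control values lay close together, whereas the sh-METTL3 values were spread widely, with replicate 1 lowest and replicate 3 nearest to the controls. The means were 177 ± 5.28 and 119 ± 22.5 (SD, n = 3 each), 66.1% of the control (95% exact interval 57.5 to 75.8), and the log2 difference was -0.59 (SE 0.16).

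MT2A, the most abundant of the 6, had 39604, 42460 and 36983 in the sh-Control libraries and 30422, 29883 and 27056 in the sh-METTL3 libraries. Replicate 3 was the lowest in both groups, the reverse of its place for MT1E. The means were 39682 ± 2739 and 29120 ± 1808 (SD, n = 3 each), or 73.6% of the control (95% exact interval 72.9 to 74.2). The log2 difference of -0.45 (SE 0.077) was the smallest of the 6. The spread between replicates, 6.9% and 6.21% of the means, was far above the counting error of 0.449% to 0.657% per library, so depth did not limit this value.

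**Figure D2:**
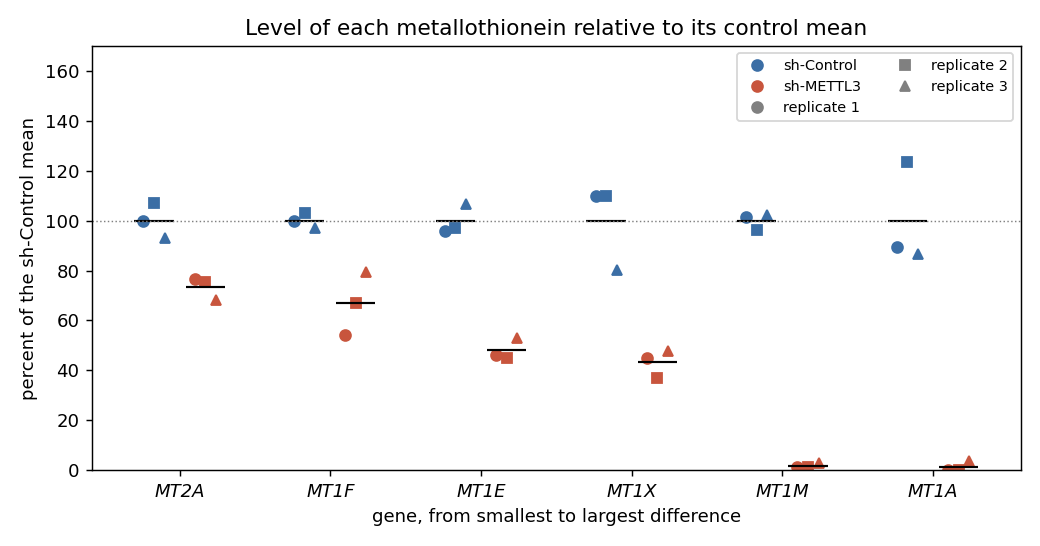
Level of each metallothionein in each library as a percent of that gene's sh-Control mean, ordered from the smallest to the largest difference, with a bar at each group mean. The sh-METTL3 libraries run from 68.2% to 76.7% for MT2A, from 45.1% to 53.1% for MT1E and from 1.16% to 3.03% for MT1M.

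Levels were then compared between the genes per exonic kilobase, with the length that the table gives for each gene. In the control cells the scaled count per kb was 30548 ± 2109 for MT2A and 10586 ± 632 for MT1E (SD, n = 3 each), the 13th and 44th highest of all listed genes. MT1M followed at 235 ± 7.55, MT1X at 188 ± 32.0, MT1A at 155 ± 31.8 and MT1F at 93.8 ± 2.8 (SD, n = 3 each). The libraries of MT1X and MT1A overlapped, while those of the other neighbours in this order did not. In the sh-METTL3 cells the order was MT2A at 22418 ± 1392, MT1E at 5096 ± 457, MT1X at 81.4 ± 10.4, MT1F at 62.8 ± 11.9, MT1M at 4.28 ± 2.47 and MT1A at 1.89 ± 3.27 (SD, n = 3 each). By this length MT1M held the third place in the control and the fifth in the METTL3-silenced cells. In the silenced cells the libraries of MT1X overlapped with those of MT1F, and those of MT1M with those of MT1A. The order depends on the length used, which was 1773 bases for MT1X and 942 for MT1M. The transcripts ending in 201 have 450 and 829 bases. By plain scaled count MT1X was above MT1M in the control (334 against 221).

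Together the 6 genes had a summed scaled count of 51612 ± 2299 in sh-Control and 34749 ± 1317 in sh-METTL3 (SD, n = 3 each), 32.7% lower, a log2 difference of -0.57. They took 0.361%, 0.373% and 0.346% of the reads on listed genes in the sh-Control libraries and 0.256%, 0.25% and 0.243% in the sh-METTL3 libraries. This share needs no size factor, but it is taken over listed genes only, which were selected on this contrast. Most of the missing reads were those of the abundant genes. MT2A made up 62.6% of the difference in the summed level and MT1E 34.3%, against 1.29% for MT1M and 0.36% for MT1A. The genes with the largest ratios therefore contributed little to the summed difference of the 6.

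The make-up of these 6 genes within a library does not depend on how libraries are scaled. MT2A took 77.5%, 78.5% and 74.6% of the metallothionein reads in the sh-Control libraries and 84.9%, 85% and 81.3% in the sh-METTL3 libraries. MT1E took 20.9%, 20% and 24% in the sh-Control libraries and 14.4%, 14.3% and 17.8% in the sh-METTL3 libraries. MT2A was thus a larger and MT1E a smaller part of the 6 in every sh-METTL3 library, by 6.92 and -6.16 percentage points on average. In both groups replicate 3 had the lowest share of MT2A.

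The 4 weak genes took under 2% of the metallothionein reads between them. The share of MT1M was 0.43% ± 0.0321 in sh-Control and 0.0118% ± 0.00729 in sh-METTL3, and that of MT1X was 0.645% ± 0.0923 and 0.416% ± 0.063 (SD, n = 3 each). MT1F kept a mean share of 0.344% ± 0.00536 and 0.343% ± 0.078 (SD, n = 3 each), a difference far inside the spread of the sh-METTL3 libraries. For MT1A the 0 of 38388 and 0 of 27280 metallothionein reads in sh-METTL3 replicates 1 and 2 allow shares of up to 0.00781% and 0.011% when 3 counts are taken as the limit, and the exact 95% intervals reach 0.00961% and 0.0135%. In the sh-Control libraries the share was 0.107% to 0.14%.

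**Figure D3:**
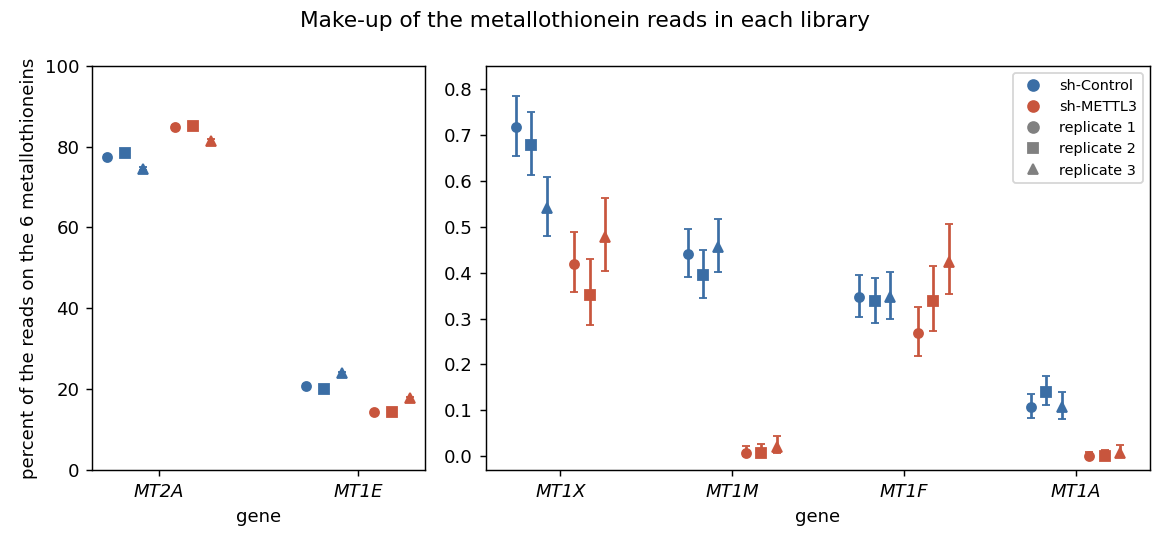
Percent of the reads on the 6 metallothioneins that fell on each gene in each library, with exact 95% binomial intervals for counting error; MT2A and MT1E on the left axis, the 4 weak genes on their own axis on the right. MT2A lies between 74.6% and 78.5% in sh-Control and between 81.3% and 85% in sh-METTL3, and MT1M and MT1A lie near 0 in sh-METTL3 only.

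Pairs of genes could also be compared directly within each library. The ratio of MT1E to MT1M, neighbours in the cluster, was 47.5, 50.7 and 52.6 in the sh-Control libraries and 1838, 1950 and 880 in the sh-METTL3 libraries. The ratio of MT1E to MT1X was 29.2, 29.5 and 44.4 in sh-Control and 34.2, 40.6 and 37.2 in sh-METTL3, so for this pair the groups overlapped. MT1M and MT1A, which had 282, 222 and 242 against 69, 79 and 57 reads in the sh-Control libraries, both came down to 6 reads or fewer per library.

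The listed genes on either side of the cluster were examined next. Before it lie NUDT21, an mRNA cleavage factor subunit, OGFOD1, a hydroxylase acting on ribosomes, and BBS2, a subunit of the ciliary BBSome. BBS2, the nearest at 87.9 kb, was higher in sh-METTL3 (log2 difference 0.29, SE 0.056, adjusted p = 0.00221 by limma). OGFOD1 (-0.68, SE 0.07) and NUDT21 (-0.49, SE 0.065) were lower, with adjusted p = 3.99e-05 and 0.000213 by limma. Beyond the cluster NLRC5, an activator of MHC class I genes at 305 kb, was lower (-0.90, SE 0.15), as was FAM192A (-0.23, SE 0.054), and DOK4, an adaptor protein, was higher (0.34, SE 0.062), with adjusted p = 0.000969, 0.00634 and 0.00158 by limma. These listed genes thus went both ways, and none of the 6 came near the differences of MT1M and MT1A. They lay from 87.9 kb (BBS2) to 788 kb (DOK4) away, and nearer genes that were not listed were not analysed here. Like all listed genes they had been selected on this contrast, so that they pass is no separate support.

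**Figure D4:**
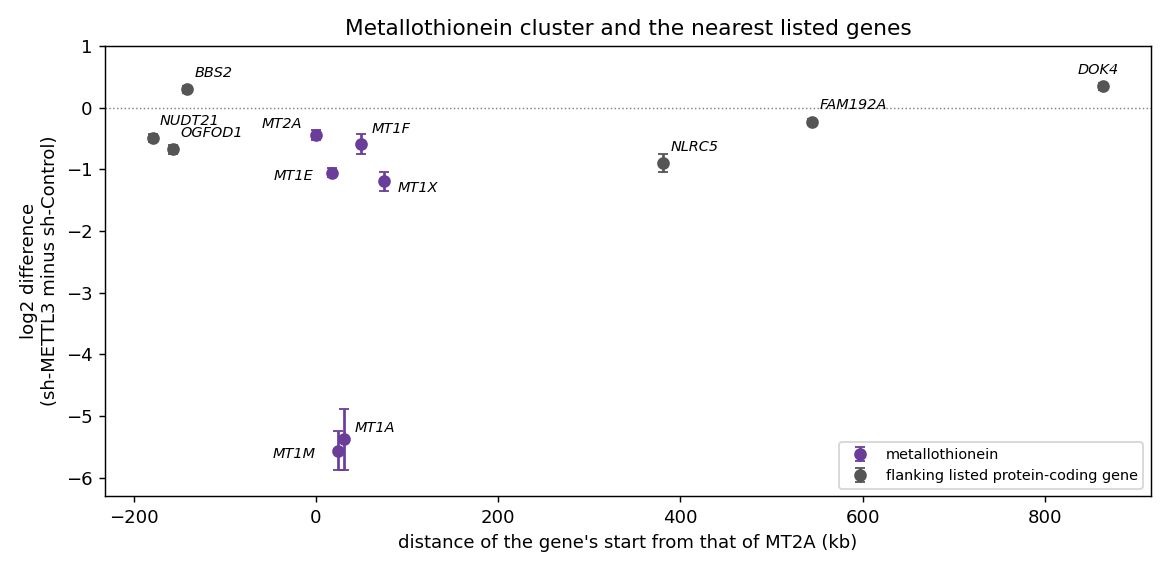
Log2 difference (sh-METTL3 minus sh-Control) with its standard error for the 6 metallothioneins and the 3 nearest listed protein-coding genes on each side, against the distance of the gene's start from that of MT2A in kb. MT1M at -5.56 and MT1A at -5.38 lie next to each other far below all other points, between MT1E at -1.06 and MT1F at -0.59.

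Genes that regulate metallothioneins or share their inducers were taken from lists of 63 genes. Of these 63, 33 were listed, against 7758 of the 22977 genes that the authors tested (33.8%). The lists were chosen with earlier results of these data known, so nothing is read from this share. Of these 33, 31 passed an adjusted p of 0.05 by limma, 25 lower and 6 higher in sh-METTL3, in a table of which 97.9% passed, 51.3% lower and 46.6% higher. The count of passing genes is near that background and says nothing particular about the lists. It fell to 19, 12 lower and 7 higher, with the size factors and Wald test of DESeq2, under which 82.7% of listed genes passed, 35% lower and 47.7% higher.

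Among 7 transcriptional regulators of metallothionein genes, 5 were listed, 4 lower and 1 higher, and MTF1 and USF1 were not analysed here. NR3C1, the glucocorticoid receptor, had means of 2765 ± 88.4 and 1805 ± 62.5 (SD, n = 3 each), a log2 difference of -0.62 (adjusted p = 1.26e-05 by limma). NFE2L2, the oxidative stress factor NRF2, was lower, as were SP1 and STAT3, which carries IL-6 signals, with log2 differences of -0.49, -0.48 and -0.41 (adjusted p = 4.6e-05, 7.42e-05 and 0.000173 by limma). USF2, a basic helix-loop-helix factor, was higher by 0.31 (adjusted p = 0.00222 by limma). These 5 passed in all 13 alternatives.

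Zinc transporters were listed for 12 of 24 genes, 8 lower and 4 higher, with a median log2 difference of -0.27. With DESeq2 7 passed, 3 lower and 4 higher, and with edgeR and TMM factors 11, 7 lower and 4 higher. With edgeR and TMM factors 7349 of the 7758 listed genes passed, 3655 lower and 3694 higher, so this count is near its background. The largest differences were those of SLC30A3, a vesicular zinc exporter (1.84, adjusted p = 0.0375 by limma), SLC39A14, an importer of zinc, iron and manganese (-0.84, adjusted p = 0.000117), SLC39A4, the intestinal zinc importer (0.79, adjusted p = 0.000227), and SLC30A4 (-0.72, adjusted p = 0.00319). SLC30A3 rested on a mean scaled count of 14.6 ± 11.2 in sh-Control against 42.5 ± 11.9 in sh-METTL3 (SD, n = 3 each). Its adjusted p by limma was 0.151 without sh-METTL3 replicate 1, 0.0931 without sh-METTL3 replicate 2 and 0.0581 without sh-Control replicate 1. With a pseudocount of 0.1 it was 0.0605. SLC30A1, the zinc exporter of the plasma membrane that MTF1 also controls, was not analysed here.

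Of 12 copper handling genes 4 were listed. ATP7B, the copper-exporting ATPase, was higher, from 169 ± 12.4 to 656 ± 26.5 (SD, n = 3 each), a log2 difference of 1.95 (adjusted p = 3.66e-07 by limma). The other 3 were lower: CCS, the copper chaperone of superoxide dismutase (-0.34), SCO1, a copper chaperone of cytochrome oxidase (-0.32), and the importer SLC31A1 (-0.24), with adjusted p = 0.0028, 0.00479 and 0.0382 by limma. The call of SLC31A1 was lost in limma without sh-Control replicate 1 (adjusted p = 0.148), sh-Control replicate 2 (0.179) or sh-METTL3 replicate 2 (0.16). It was also lost in edgeR with TMM factors (adjusted p = 0.0807), where the other 3 genes passed. With DESeq2 ATP7B alone passed, and CCS (adjusted p = 0.0617), SCO1 (0.127) and SLC31A1 (0.666) did not.

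Of 10 NRF2 targets 6 were listed, and 4 of them passed, all lower, with a median of -0.33 over the 6. With DESeq2 3 passed, GCLM and FTL lower and SRXN1 higher, while NQO1 (adjusted p = 0.247) and TXNRD1 (0.0922) did not. They included GCLM, a subunit of the enzyme that starts glutathione synthesis (-0.52, adjusted p = 0.0063 by limma), and FTL, the ferritin light chain (-0.43, adjusted p = 0.00158). SRXN1 (0.64, adjusted p = 0.0573) and the cystine importer SLC7A11 (-0.36, adjusted p = 0.164) did not pass by limma and their groups overlapped, although SRXN1 passed in 5 of 13 alternatives, namely edgeR with TMM factors (0.029) or the authors' size factors (0.037), DESeq2 (0.00324), limma without sh-METTL3 replicate 1 (0.0113) and limma adjusted over listed genes alone (0.0194), and SLC7A11 by limma without sh-Control replicate 3 (0.0243). HMOX1 was not analysed here.

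Of 10 glucocorticoid-induced genes 6 were listed, all of them lower, with a median of -0.64. With DESeq2, and by limma without sh-Control replicate 1 or replicate 2, 3 of the 6 passed, all lower, and FKBP5, TSC22D3 and DUSP1 did not. In these 2 limma fits 6541 and 6548 of the 7758 listed genes passed, 3403 and 3392 of them lower. With edgeR and TMM factors, under which 7349 listed genes passed and 3655 of them were lower, 4 of the 6 passed, all lower. TSC22D3 (adjusted p = 0.0532 by edgeR) and DUSP1 (0.0772) did not. SGK1, a kinase of ion transport (-2.04), ANGPTL4, an inhibitor of lipoprotein lipase (-1.43), and KLF9 (-0.88) had the largest differences, with adjusted p = 5.04e-05, 8.84e-05 and 6.06e-05 by limma. FKBP5, a cochaperone of the glucocorticoid receptor, was lower (-0.39, adjusted p = 0.0168 by limma), a call lost with DESeq2 (0.139, beside 0.264 for TSC22D3 and 0.45 for DUSP1) and when any 1 sh-Control library was left out (0.0535 to 0.0599). SGK1 and ANGPTL4 were among the genes the study itself picked partly from these libraries, so they are not independent of them. The part that any of these genes has in the metallothionein levels was not tested.

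**Figure D5:**
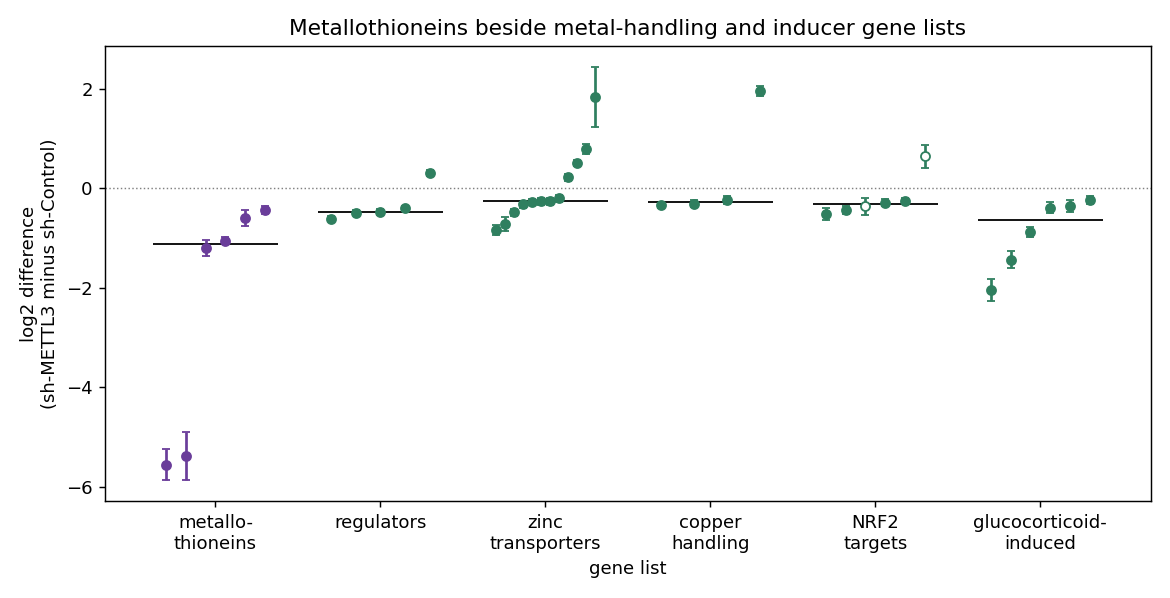
Log2 difference (sh-METTL3 minus sh-Control) with its standard error for the 6 metallothioneins and the 33 listed genes of 5 lists; the line is the median of each list, and open points did not pass an adjusted p of 0.05 by limma. The medians run from -1.13 for the metallothioneins and -0.64 for glucocorticoid-induced genes to -0.27 for zinc transporters, and only MT1M and MT1A lie below -5.

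Finally, protein-coding genes with a pattern like that of MT1M were looked up among 2836 listed genes whose control mean lay within a factor of 4 of its own. Likeness was the Euclidean distance over the 6 libraries of log2 values set to the control mean. Among the nearest were ITM2A (distance 0.404), TSPYL5 (0.688), ELN (0.801) and ATP10A (1.1). ITM2A, a membrane protein, went from 870 ± 59.7 to 20.2 ± 6.76 and ELN, which encodes elastin, from 70.7 ± 18.5 to 0.746 ± 1.29 (SD, n = 3 each). Those nearest to MT2A, of 210 genes, included FTL (0.0802), TMEM132A (0.16), LAMB1 (0.177) and HSPG2 (0.206). FTL had scaled counts of 39058, 39269 and 35435 in the sh-Control libraries and 30008, 28551 and 25689 in the sh-METTL3 libraries, its replicate 3 being the lowest in both groups.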

How the data were processed

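RNA sequencing of 3 sh-Control and 3 sh-METTL3 libraries of LPS-treated ARPE-19 cells was taken from 1 gene table. The submitters' processing notes name HISAT2 2.0.5 and hg38; the methods name Cufflinks with RefSeq mRNAs, but the rows are Ensembl genes, of which 99.99% have the start and end of GENCODE release 29. The read counter and strand setting were not given in the sources used here. The values the authors deposited per library are a signal, namely the read count divided by 1 size factor, and 100% of values came out as whole reads within 0.01. The authors also deposited group means, a log2 fold change and its raw and adjusted p-value, which were not used, except that the p-value columns gave the number of tests (22977) and showed that the authors deposited called genes only.

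The fit was limma 3.58.1 (R 4.3.3, with a mean-variance trend) on log2(scaled count + 1), over all 7758 genes, with Benjamini-Hochberg adjustment over 22977 tests; a log2 difference on this scale understates that of weak genes. A count test was not the main test because the table holds scaled values. Alternatives were edgeR 4.0.16 and DESeq2 1.42.0 on the recovered reads, of which edgeR with the authors' size factors called 7645 genes, a pseudocount of 0.1, a minimum mean of 50, the replicate number as a block, adjustment over listed genes alone and leaving out each library. Ratios and shares of reads have exact (Clopper-Pearson) 95% intervals. Library depth beyond listed genes is unknown. Sequences were read from GENCODE 29 transcripts and RefSeq promoters.

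The members and gene lists were chosen with earlier results of these data known. Named were all 6 metallothioneins, METTL3, the 3 nearest listed protein-coding genes on each side, all listed regulators, the 4 largest differences of each other list and the 5 genes nearest in pattern to MT1M and to MT2A. A few genes and a sequence that these rules take in are not reported here.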

Additional observations from a re-analysis of the deposited data

How the results depend on the processing

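All 6 metallothioneins kept their direction in each alternative that gave them a value, and no listed gene of the 5 lists changed sign. Of 122 recomputed values 114 stayed within the limits set, 7 moved by more than the spread between replicates and 1 count was reduced by over 1.5 times. With DESeq2, whose size factors shifted the median log2 difference of listed genes by 0.123, MT2A was at -0.32, MT1E at -0.93 and the summed level at -0.45, and 3 in place of 4 genes were more than halved. MT1A moved to -7.73 with a pseudocount of 0.1, to -6.27 in DESeq2, to -6.13 in edgeR with TMM factors and to -6.17 in edgeR with the authors' size factors; it was dropped by the filter on a mean of at least 50. The count of called list genes was 31, and 19 with DESeq2, where 6418 listed genes were called, 3704 higher and 2714 lower, against 7597, 3614 higher and 3983 lower; the cause was not tested.

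When 1 library was left out, the log2 difference ran from -0.50 to -0.39 for MT2A, from -1.13 to -1.01 for MT1E, from -5.91 to -5.36 for MT1M, from -5.95 to -5.10 for MT1A, from -0.73 to -0.45 for MT1F and from -1.35 to -1.09 for MT1X. That of the summed level ran from -0.60 to -0.54, the share of MT2A from 5.78 to 8.14 points, the share of MT1E from -7.30 to -4.98 points, the called list genes from 23 to 30 and all called genes from 6541 to 7290. For MT1F the fit without sh-METTL3 replicate 1 gave -0.45. With the replicate block 7481 genes were called, 7406 of them also without it, and 28 list genes; deviations from the group means correlated at 0.00361, 0.0193 and -0.015 between libraries sharing a replicate number, which gives no pairing. Depth limits MT1A and MT1M in sh-METTL3, with 2 and 11 reads in all.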
